A study of Mus musculus with 6 samples.

Results

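The genes described here are 10 immediate early genes, *Fos*, *Fosb*, *Jun*, *Junb*, *Egr1*, *Atf3*, *Nr4a1*, *Arc*, *Ier2* and *Dusp1*, taken by symbol from the 32285 genes of the count matrices. All 10 were found under 1 identifier each, and all 10 passed the filter on low counts in every comparison between classes of cells below. Single cells were dissociated from whole autonomic ganglia of mouse pups of both sexes at postnatal day 5, and droplet libraries counted unique molecular identifiers (UMIs), the tags that mark single captured transcripts. Every library came from pups of the same genotype, which carried a Cre driver and the Cre-dependent red fluorescent reporter RosatdT. The labels describe no sort and do not say how many pups made up a library. The stellate ganglion, the sphenopalatine ganglion and the first pelvic library (pelvic_1) were made in round 1, with version 2 of the droplet chemistry. The coeliac ganglia, the lumbar chain and the second pelvic library (pelvic_2) were made in round 2, with version 3, at another facility. Stellate, coeliac and lumbar ganglia are sympathetic, the sphenopalatine ganglion is parasympathetic, and the pelvic ganglion is the only one present in both rounds, so round and ganglion cannot be told apart for the other 4. There were no treated samples and no library of undissociated tissue, so the levels before dissociation were not measured.

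The 6 libraries kept 1427 to 7219 cells each after filters on genes and mitochondrial reads, 21442 in all, and pairs of libraries shared 0 to 49 barcodes. Neurons (7052 cells) and glia (8468 cells) were those in which the mean of 4 neuronal or 5 glial marker genes passed a threshold, 5696 cells that passed neither are called other cells, and cells that passed both were left out. The median depth of a library was 26651 to 108598 UMIs a cell in neurons, 3522 to 12151 in glia and 5591.5 to 19219 in other cells, so levels are given as counts per 1000000 UMIs of a class (CPM), as UMIs per cell, or after thinning each cell to 2000 UMIs. In neurons the 5 glial markers stood at 0.293% to 1.84% of their level in glia of the same library. In glia the neuronal markers stood at 3.07% to 17.4% of their level in neurons. Those markers chose the classes, so these 2 ranges describe what else the cells held, including free RNA, and test nothing.

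Immediate early genes are transcribed within minutes of a stimulus without new protein synthesis, from factors that already wait at their promoters. Growth factors, calcium entry, cell stress and the handling of tissue can all switch them on, and enzymatic dissociation of live tissue is a widely known trigger, here carried out with papain and then with collagenase and dispase in warm solution. Most of them encode transcription factors: *Fos*, *Fosb*, *Jun* and *Junb* make the subunits of AP-1, *Atf3* makes a related basic leucine zipper factor that nerve injury raises in neurons, *Egr1* makes a zinc finger factor and *Nr4a1* an orphan nuclear receptor. *Arc* encodes a protein of synapses, *Dusp1* a phosphatase that switches off MAP kinases, and *Ier2* a nuclear protein. In peripheral ganglia the neurons are wrapped by satellite glia, and Schwann cells, fibroblasts, vessels and macrophages lie between them.

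Promoters are shown for 3 members that differed in what follows, *Fos*, whose levels were far higher in glia than in neurons, *Nr4a1*, whose pelvic neurons and glia differed in direction between the rounds, and *Dusp1*, the member nearest to equal between neurons and glia. Each run is 300 bases of the mouse build GRCm38.p6 from RefSeq, 250 before and 50 from the transcription start, written 5′ to 3′ on the gene's own strand, and capitals mark TGACG, the core of the cyclic AMP response element, or its complement CGTCA. The windows are chr12:85473640-85473939 (plus strand) for *Fos*, chr15:101266596-101266895 (plus strand) for *Nr4a1* and chr17:26508423-26508722 (minus strand) for *Dusp1*.
Fos: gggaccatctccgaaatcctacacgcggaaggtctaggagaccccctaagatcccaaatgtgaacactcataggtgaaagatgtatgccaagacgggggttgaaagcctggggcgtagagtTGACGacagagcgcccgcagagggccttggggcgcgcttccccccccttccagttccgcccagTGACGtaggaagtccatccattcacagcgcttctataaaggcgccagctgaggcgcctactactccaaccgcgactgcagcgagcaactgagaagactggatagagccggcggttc
Nr4a1: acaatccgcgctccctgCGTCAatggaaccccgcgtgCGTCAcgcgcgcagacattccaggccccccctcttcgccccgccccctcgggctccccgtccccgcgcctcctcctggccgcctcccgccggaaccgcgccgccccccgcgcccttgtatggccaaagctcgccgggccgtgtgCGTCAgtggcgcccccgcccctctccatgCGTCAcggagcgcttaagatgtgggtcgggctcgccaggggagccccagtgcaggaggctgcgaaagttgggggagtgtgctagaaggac
Dusp1: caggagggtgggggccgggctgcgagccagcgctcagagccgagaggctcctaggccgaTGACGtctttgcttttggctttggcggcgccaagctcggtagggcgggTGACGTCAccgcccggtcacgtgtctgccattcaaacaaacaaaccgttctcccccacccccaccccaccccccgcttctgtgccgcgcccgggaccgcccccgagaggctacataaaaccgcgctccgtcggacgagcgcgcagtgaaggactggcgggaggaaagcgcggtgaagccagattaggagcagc

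RefSeq promoter windows were matched for 7 of the 10 members (*Fos*, *Fosb*, *Jun*, *Junb*, *Atf3*, *Nr4a1* and *Dusp1*), while *Egr1*, *Arc* and *Ier2* had no entry in the table used. On either strand TGACG stood in the windows of 6 of the 7, *Jun* being the other, against 20.8% of 32851 promoter windows of the same length. *Nr4a1* held 4 copies, *Dusp1* 3 and *Fos* 2, and 2 of the *Dusp1* copies, 1 on each strand, made up the full palindrome TGACGTCA, which 1.79% of all windows and no other of the 7 held. The AP-1 site TGAGTCA stood in 0 of the 7 and in 5.2% of all windows, and the CArG box, the serum response element core, in 0 of the 7 and in 1.63%. The *Egr1* site GCGGGGGCG stood in the windows of *Fosb* and *Nr4a1* (2.91% of all), and TATAAA in those of *Fos* and *Junb* (13.6% of all). These are letter matches in a short window and were not set against the counts.

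*Fos* (ENSMUSG00000021250, GRCm38 chromosome 12, 85473890 to 85477273, plus strand) was detected in every library and every class. In neurons it stood at 93.6 CPM in the stellate ganglion, 139 CPM in the sphenopalatine, 274 CPM in pelvic_1, 130.0 CPM in the coeliac, 99.3 CPM in the lumbar and 451 CPM in pelvic_2. In glia of the same libraries, in the same order, *Fos* stood at 2181, 3101, 3211, 4948, 4720.0 and 5921 CPM. The lowest library of glia was thus several-fold above the highest library of neurons, and the 3 libraries of round 2 were the highest for glia. In other cells *Fos* stood at 1246, 1568, 1900.1, 2963, 2709 and 3171 CPM, below the glia of its own library each time and above the neurons each time. In edgeR's quasi-likelihood fit with the library as a block, glia exceeded neurons by 4.33 ± 0.29 (SE, 6 libraries) on the log2 scale, with an adjusted p (Benjamini-Hochberg) of 2.33e-08. These p-values measure the spread between 6 libraries that differ in ganglion and round, not between pups of 1 ganglion.

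**Figure D1:**
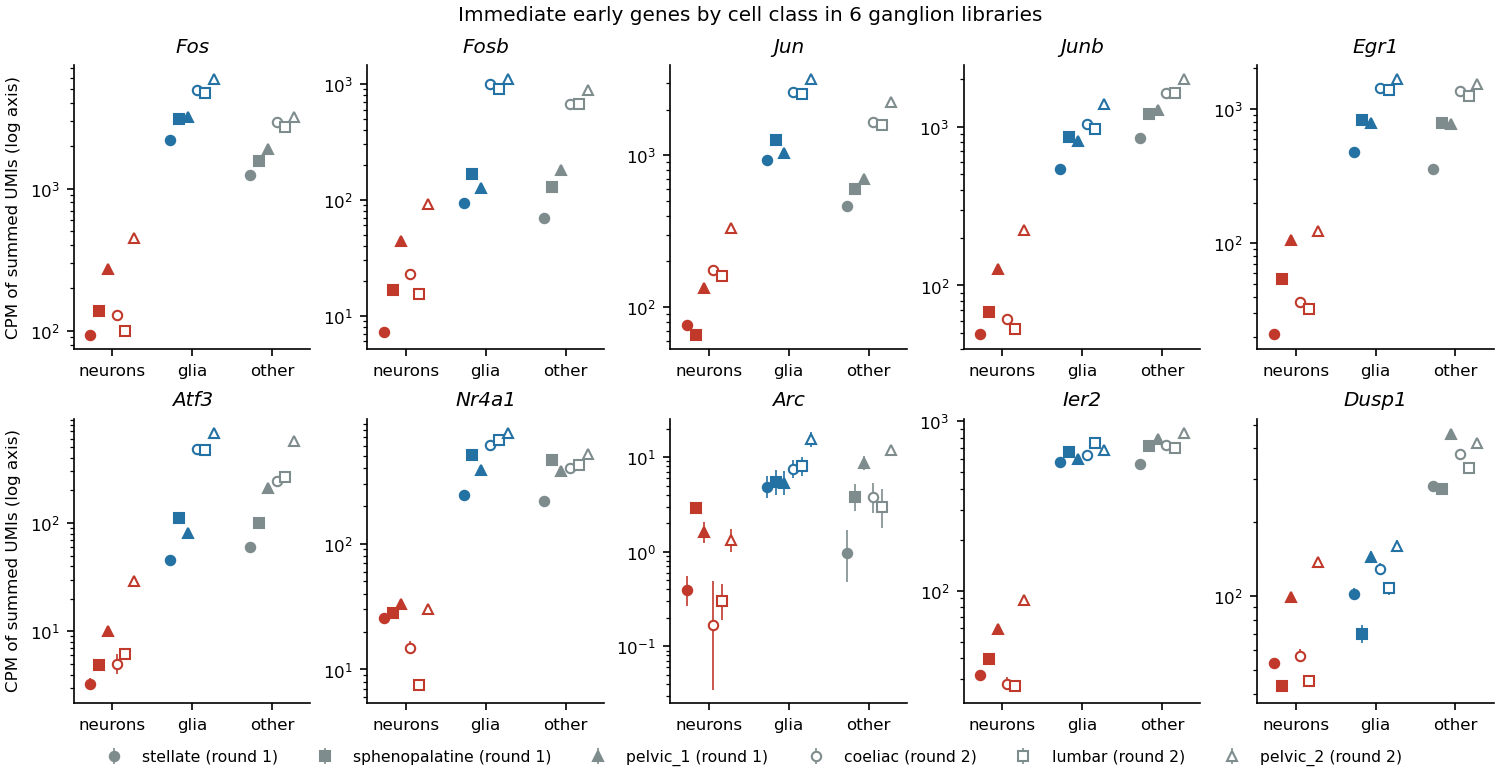
Level of each of the 10 genes in neurons, glia and other cells of each library, in CPM on a log axis, 1 point a library, filled for round 1 and open for round 2. The *Fos* points of glia lie between 2181 and 5921 CPM and those of neurons between 93.6 and 451 CPM, while the *Dusp1* points of neurons and glia overlap.

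All 10 members were higher in glia than in neurons at an adjusted p under 0.05 and none was lower, in a fit of 15844 genes of which 38.4% were higher in glia and 38.3% lower. The median difference of the members was 3.73 on the log2 CPM scale against 0.0128 over all genes tested, and it stood at 3.69 for other cells against neurons, where all 10 were again higher against a background of 38.2% of genes higher and 40.1% lower. All 10 passed in both comparisons when any 1 of the 6 libraries was left out. Without the library block *Dusp1* no longer passed between glia and neurons (adjusted p = 0.0578 by edgeR) and the other 9 did, and it did not pass in round 2 alone (adjusted p = 0.0539 by edgeR). *Arc* did not pass between other cells and neurons in round 1 alone (adjusted p = 0.0950 by edgeR).

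Among the AP-1 subunits, *Jun* (chromosome 4, 95049034 to 95052222, minus strand) stood at 76.4, 65.9, 133, 175, 161 and 331 CPM in neurons, in the order stellate, sphenopalatine, pelvic_1, coeliac, lumbar and pelvic_2, and at 929, 1256, 1033, 2629, 2558 and 3188 CPM in glia. *Junb* (chromosome 8, 84974484 to 84978718, minus strand) ran from 49.3 to 223 CPM in neurons with a median of 64.8, and from 541 to 1395 CPM in glia with a median of 915. *Fosb* (chromosome 7, 19302696 to 19310051, minus strand) ran from 7.21 to 92.2 CPM in neurons and from 93.0 to 1095 CPM in glia. Glia and neurons did not overlap for any of these 3 genes, though the lowest glia of *Fosb* lay just above its highest neurons. By edgeR's quasi-likelihood test the glia exceeded the neurons by 3.53 ± 0.17 for *Jun*, 3.29 ± 0.24 for *Junb* and 3.65 ± 0.49 for *Fosb* on the log2 CPM scale, with adjusted p-values of 1.51e-09, 5.53e-08 and 1.52e-05. *Atf3* (chromosome 1, 191170296 to 191218039, minus strand) had the largest difference of the 10, 4.68 ± 0.44 with an adjusted p of 4.89e-07 in the same fit, from 3.26 to 29.3 CPM in neurons and from 45.7 to 676 CPM in glia. Its lowest glia, those of the stellate ganglion, still exceeded its highest neurons, those of pelvic_2.

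*Egr1* (chromosome 18, 34859823 to 34864984, plus strand) stood at 21.2, 53.8, 105, 36.6, 32.1 and 123 CPM in neurons of the stellate, sphenopalatine, pelvic_1, coeliac, lumbar and pelvic_2 libraries. In glia it stood at 473, 827, 789, 1441, 1385 and 1663 CPM, with no overlap, and the edgeR difference was 4.10 ± 0.33 with an adjusted p of 1.41e-07. *Nr4a1* (chromosome 15, 101254269 to 101274795, plus strand) ran from 7.48 CPM in lumbar to 32.9 CPM in pelvic_1 neurons and from 241 to 753 CPM in glia, a difference of 4.36 ± 0.39 with an adjusted p of 3.41e-07 in that fit. *Ier2* (chromosome 8, 84661331 to 84662852, minus strand) was the member whose glia varied least between libraries, at 573, 656, 595, 632, 748 and 675 CPM in the order given above, against 27.3 to 87.5 CPM in neurons. Its difference was 3.82 ± 0.23 with an adjusted p of 8.13e-09 by edgeR.

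*Dusp1* and *Arc* departed from the other 8. *Dusp1* (chromosome 17, 26505590 to 26562128, minus strand) stood at 53.5, 42.8, 99.3, 57.1, 45.2 and 138 CPM in neurons and at 102, 70.3, 145, 129, 108 and 160 CPM in glia, in the order stellate, sphenopalatine, pelvic_1, coeliac, lumbar and pelvic_2. Glia were higher within each library, but neurons of pelvic_2 exceeded glia of 4 libraries, and the edgeR difference was 0.67 ± 0.16 with an adjusted p of 0.00148. Other cells held 280, 274, 457, 379, 334 and 421 CPM of *Dusp1*, above both other classes in each library. *Arc* (chromosome 15, 74669083 to 74672570, minus strand) was close to absent: 3 to 220 UMIs in all the neurons of a library, or 0.167 to 2.89 CPM, 4.89 to 15.4 CPM in glia and 0.959 to 11.8 CPM in other cells. Its glia exceeded its neurons by 2.98 ± 0.53 with an adjusted p of 0.000190 by edgeR. Over the 18 sums of 6 libraries and 3 classes, the correlation of a member's log2 CPM with the mean of the other 9 was 0.994 for *Egr1*, 0.839 for *Arc* and 0.710 for *Dusp1*, with the other 7 between 0.932 and 0.979. This describes 18 sums that share libraries and depth.

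Neurons held many more UMIs than glia, so the scale matters. Counted as UMIs per cell instead of CPM, the median of all genes was 2.74 lower in glia than in neurons on the log2 scale, 84.2% of genes were lower in glia and 7.25% were higher. Against that background 6 members were still higher in glia at an adjusted p under 0.05 by edgeR: *Atf3* by 1.92 ± 0.42, *Nr4a1* by 1.59 ± 0.37, *Fos* by 1.56 ± 0.29, *Egr1* by 1.33 ± 0.33, *Ier2* by 1.06 ± 0.24 and *Jun* by 0.78 ± 0.18. *Fos* and *Nr4a1* were higher per cell in glia of each of the 6 libraries. In pelvic_1 the ratio of glia to neurons in UMIs per cell was 0.914 for *Jun*, 0.882 for *Egr1* and 0.936 for *Atf3*, and in pelvic_2 it was 0.975 for *Ier2*, so those neurons gave slightly more, while these 4 genes were higher per cell in glia of the other 5 libraries. *Fosb* (0.88 ± 0.49, adjusted p = 0.102), *Junb* (0.52 ± 0.25, adjusted p = 0.0643) and *Arc* (0.24 ± 0.55, adjusted p = 0.684) did not pass the edgeR threshold on this scale. *Dusp1* turned in direction, with a glia minus neuron difference of -2.09 ± 0.18 and an adjusted p of 5.13e-08. On the same scale 9 members were higher in other cells than in neurons, *Arc* being the exception, and none was lower, where 14.9% of genes were higher and 76.5% lower. The UMIs-per-cell scale was added after the values were seen.

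**Figure D2:**
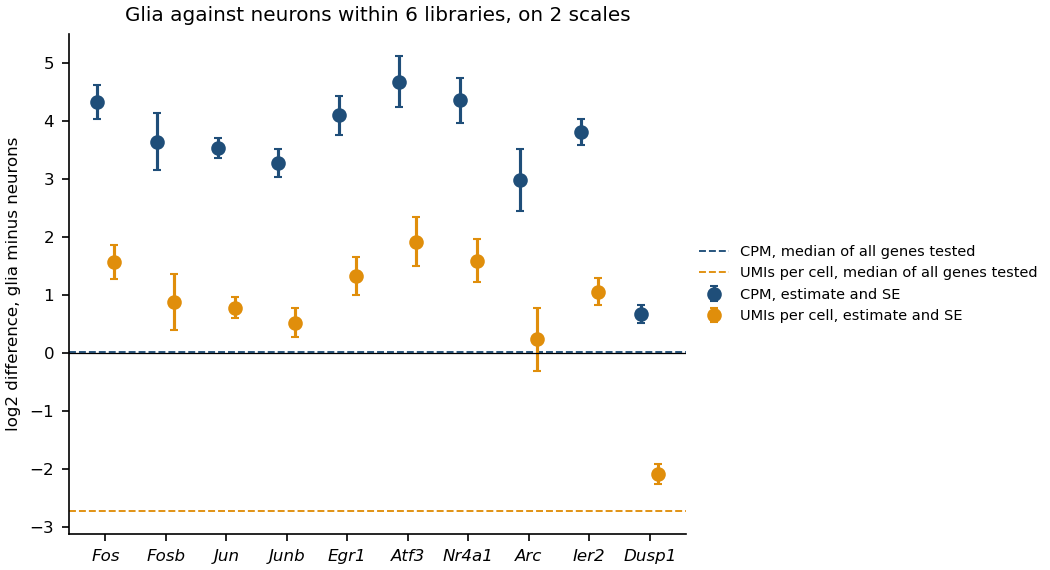
Difference between glia and neurons of each of the 10 genes in log2 units (edgeR estimate and standard error over 6 libraries), in CPM and in UMIs per cell, with dashed lines at the medians of all genes tested, 0.0128 and -2.74. All 10 lie above 0 in CPM, and in UMIs per cell *Dusp1* lies below 0, at -2.09.

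Thinned to 2000 UMIs, which left out none of the cells, *Fos* was detected in 79.0% to 96.7% of the glia of a library and in 16.3% to 58.4% of the neurons. In the stellate ganglion at 1 end it was found in 16.3% of 2724 neurons (95% Wilson interval 14.9 to 17.7%) and 79.0% of 2899 glia (77.5 to 80.4%). In pelvic_2 at the other end it was found in 58.4% of 365 neurons (53.2 to 63.3%) and 96.7% of 574 glia (94.9 to 97.9%). Intervals here cover counting error only. In all 6 libraries 8 members were detected in a larger share of glia than of neurons with intervals that did not overlap, which held for 8.41% of the 15844 genes. The other 2 were *Dusp1*, found in 8.57% to 24.1% of neurons and 10.3% to 19.3% of glia, and *Arc*, found in 0% to 0.736% of neurons and 0.829% to 1.62% of glia, and each passed in 2 of 6 libraries. The 0 of 237 thinned coeliac neurons with an *Arc* UMI allows a share of up to 1.27% with a UMI at that depth, and unthinned, 0.844% of them held one. Without thinning, the shares follow the depth and 1 member, *Nr4a1*, passed in all 6 libraries.

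A thinned neuron held a median of 0 to 2 of the 10 members, and a thinned glial cell a median of 4 to 7, by library. At least 5 members were found together in 0.158% to 9.04% of neurons and 36.8% to 89.7% of glia, and no member at all in 9.59% to 54.0% of neurons and 1.05% to 9.35% of glia. Other cells resembled glia, with medians of 4 to 7. The spread of *Fos* among thinned glia was wide: in the stellate ganglion the median cell held 3 UMIs of the 2000 and the cell at the 90th percentile 11, and in pelvic_2 these were 12 and 20. In neurons the median was 0 in 5 libraries and 1 in pelvic_2.

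**Figure D3:**
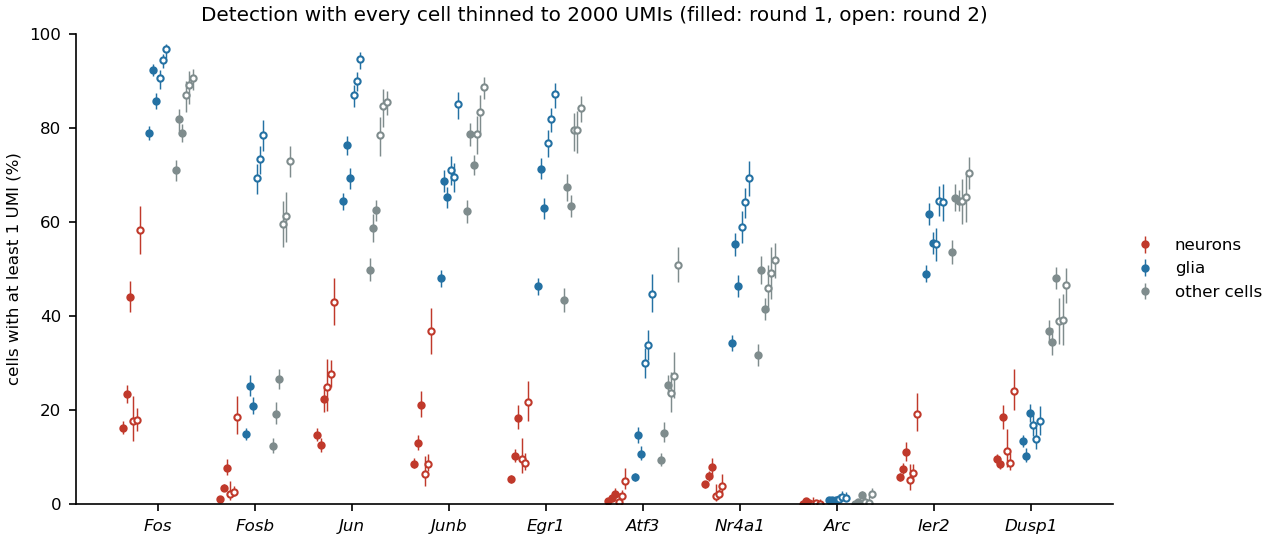
Share of cells, in percent, with at least 1 UMI of each of the 10 genes after thinning every cell to 2000 UMIs, by class and library, with 95% Wilson intervals as bars. *Fos* was found in 79.0% to 96.7% of glia and 16.3% to 58.4% of neurons, and *Arc* in at most 2.16% of the cells of any class.

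Free RNA can carry counts of 1 class into another. As a share of the level in glia of the same library, *Fos* in neurons stood at 2.10% to 8.52%, *Atf3* at 1.04% to 12.6%, *Fosb* at 1.69% to 35.1% and *Dusp1* at 42.0% to 86.0%. The 5 glial markers stood at 0.293% to 1.84%, but neurons were kept for being low in them. A list of 5 myelin genes of Schwann cells, which did not choose the cells, stood at 8.90% to 17.6%. Lists for other cells did not choose the neurons either. As a share of their level in other cells, fibroblast markers in neurons stood at 0.181% to 1.40%. Macrophage markers in neurons stood at 0.156% to 1.33% and endothelial markers at 2.45% to 5.38%. In glia the fibroblast markers stood at 11.1% to 25.8% of their level in other cells. There the macrophage markers stood at 1.36% to 10.1% and the endothelial markers at 1.23% to 7.34%. Droplets with too few genes to be kept held 428 to 1722 CPM of *Fos*. How much of the neuronal or glial counts came from free RNA was not tested.

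Other cells against glia divided the members. *Dusp1* was higher in other cells by 1.60 ± 0.16 on the log2 CPM scale (adjusted p = 2.62e-06 by edgeR) and *Junb* by 0.60 ± 0.22 (adjusted p = 0.0330). *Jun* was lower, with a difference of -0.78 ± 0.15 (adjusted p = 0.000836), and so was *Fos*, with a difference of -0.85 ± 0.25 (adjusted p = 0.0119), both by edgeR. The remaining 6 did not pass, and over all genes 26.8% were higher in other cells and 28.2% lower. *Junb* stood at 853, 1199, 1264, 1623, 1638 and 1996 CPM in other cells, in the order stellate, sphenopalatine, pelvic_1, coeliac, lumbar and pelvic_2, above the 541 to 1395 CPM of glia within each library. The call for *Junb* was lost when the stellate, sphenopalatine, coeliac or lumbar library was left out, and that for *Fos* was lost without the sphenopalatine library (adjusted p = 0.0593 by edgeR). In UMIs per cell, on which the median of all genes was 0.91 higher in other cells and 76.9% of genes were higher and 6.36% lower, *Dusp1*, *Junb*, *Ier2* and *Egr1* were higher by edgeR and none was lower, while *Fos* (0.06 ± 0.28) and *Jun* (0.13 ± 0.18) no longer fell below the glia.

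The other cells were clustered without the members and the lists below and named from fixed markers. The clusters of fibroblast-like cells, 2739 in all, held 1809 to 3528 CPM of *Fos* by library, and those of mural-like cells, which wrap small vessels, 1868 to 3403 CPM. Endothelial-like cells (705) ran from 1061 to 2937 CPM and macrophage-like cells (506) from 1386 to 2366 CPM. *Dusp1* stood at 420 to 711 CPM in endothelial-like cells and at 477 to 668 CPM in macrophage-like cells, against 200.3 to 421 CPM in fibroblast-like cells, so that fibroblast-like cells of pelvic_2 alone reached the endothelial-like range. *Atf3* was highest in macrophage-like cells among these 4 types in each library, from 270 CPM in the stellate to 892 CPM in pelvic_2. An unnamed group of clusters held fewer transcripts of *Fos*, 353 to 2055 CPM, and included 292 cells led by neuronal genes such as *Snhg11* and *Slc6a2*. Summed over libraries, that cluster held 292 CPM of *Fos*, and the other unnamed clusters held 1258 to 3002 CPM. Without the unnamed clusters *Junb*, *Dusp1*, *Fos* and *Jun* kept their direction and their calls against glia.

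Chromaffin-like cells, led by *Chga* and *Chgb*, genes of the secretory granules that chromaffin cells of the adrenal medulla fill with hormone, numbered 261 in the 4 libraries that held at least 20 of them. *Fos* stood at 5398 CPM in 157 such cells of pelvic_1 and at 7366 CPM in 34 of pelvic_2, but at 2259 CPM in 33 of the coeliac and 1514 CPM in 37 of the stellate library. The 2 pelvic libraries were thus the high ones although they came from different rounds. *Arc* followed, with 77.1 CPM in pelvic_1 and 141 CPM in pelvic_2, against 1.54 CPM in the coeliac library and 0 UMIs in the stellate. *Atf3* stood at 1009.65 and 1747 CPM in the pelvic and 315 and 206 CPM in the coeliac and stellate libraries, and *Dusp1* at 1613 and 1195 against 404 and 399 CPM. No test was made between 2 libraries a side, the cells are few, and the comparison was chosen after the values were seen. Among the named types, *Arc* was otherwise above 20 CPM only in 29 epithelial-like cells of pelvic_2, at 31.6 CPM. An unnamed cluster of 23 cells, summed over libraries, held 28.5 CPM.

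**Figure D4:**
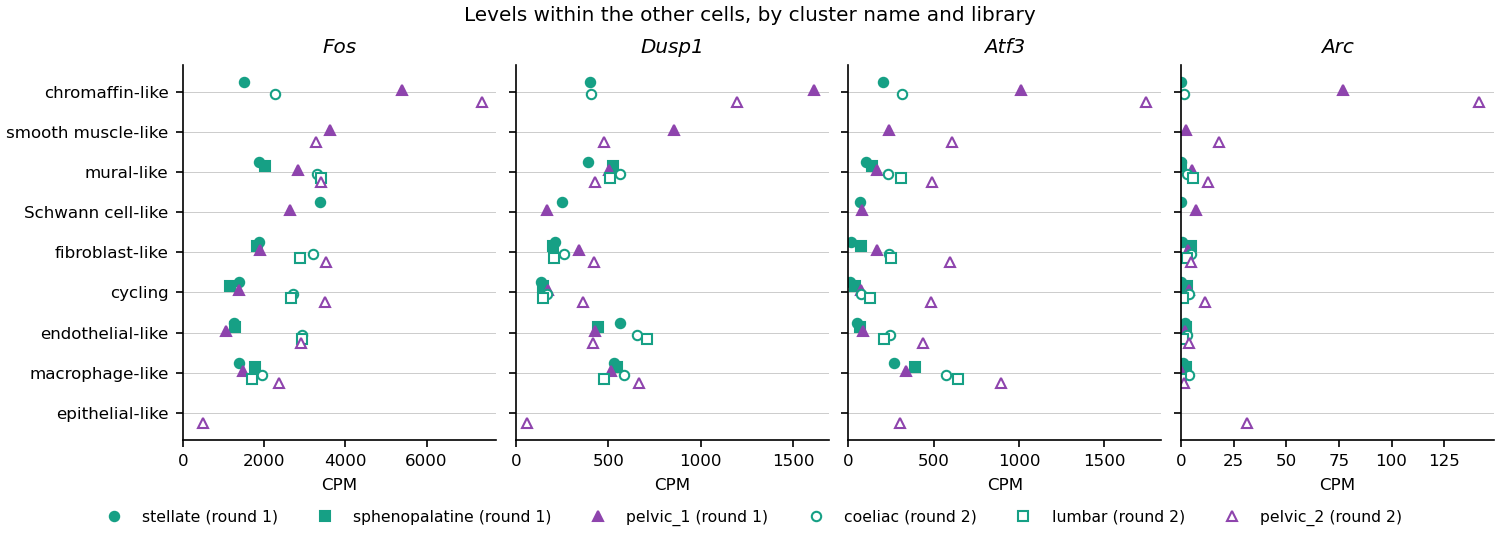
Level of *Fos*, *Dusp1*, *Atf3* and *Arc* in the named types among the other cells, in CPM, 1 point for each library with at least 20 cells, pelvic libraries in purple and the others in green. In chromaffin-like cells the pelvic points of *Fos* (5398 and 7366 CPM) lie above those of the coeliac and stellate libraries (2259 and 1514 CPM).

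The 2 rounds were compared in glia first. The *Fosb* level in glia was 93.0, 168 and 127 CPM in the stellate, sphenopalatine and pelvic_1 libraries of round 1 and 989.7, 901 and 1095 CPM in the coeliac, lumbar and pelvic_2 libraries of round 2. *Atf3* in glia was 45.7, 111 and 81.0 CPM in round 1 and 480.2, 468 and 676 CPM in round 2. The rounds did not overlap for either gene. By edgeR the round 2 glia were higher by 2.90 ± 0.23 for *Fosb* (adjusted p = 0.000114) and by 2.73 ± 0.33 for *Atf3* (adjusted p = 0.000520), and 7 of the 10 members were higher, none lower, where 27.7% of 13311 genes were higher and 26.9% lower. The other 5 were *Jun* (1.34 ± 0.17, adjusted p = 0.000594), *Egr1* (1.06 ± 0.22, adjusted p = 0.00575), *Fos* (0.83 ± 0.20, adjusted p = 0.00899), *Arc* (0.93 ± 0.30, adjusted p = 0.0317) and *Nr4a1* (0.79 ± 0.26, adjusted p = 0.0357), all by edgeR. *Junb* (0.57 ± 0.22, adjusted p = 0.0608), *Ier2* (0.13 ± 0.11, adjusted p = 0.354) and *Dusp1* (0.29 ± 0.25, adjusted p = 0.365) did not pass. Without pelvic_1, coeliac, lumbar or pelvic_2 the call for *Nr4a1* was lost, and without stellate, sphenopalatine or pelvic_1 that for *Arc*. Round carries with it the chemistry, the facility, the depth of the glia and, outside the pelvic ganglion, the ganglion, and these cannot be told apart.

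All 3 libraries of round 2 lay above all 3 of round 1 for 8 members in glia (37.9% of genes of at least 10 CPM did), for 6 in other cells (33.5%) and for 1, *Jun*, in neurons (25.8%). The 8 include *Arc*, whose mean in glia, 7.78 CPM, lies below that bound. In neurons no member passed the edgeR test between rounds, where 9.29% of 15917 genes were higher in round 2 and 6.52% lower. At an unadjusted p under 0.05 by edgeR there was *Jun* alone, at 1.24 ± 0.39 (adjusted p = 0.0861), where 5039 of the 15917 genes were. DESeq2 called *Jun*, with 2082 of 15829 genes higher in round 2 and 1644 lower. Without pelvic_2 edgeR called *Nr4a1* lower in round 2 neurons, at -1.47 ± 0.31 (adjusted p = 0.0462), as it did 758 of 16866 genes. Whether the difference between glia and neurons itself changed between rounds was tested by the interaction. No member passed it in edgeR, against 6.79% of genes. At an unadjusted p under 0.05 by edgeR there were 4 (*Nr4a1* 1.93 ± 0.50, *Atf3* 2.10 ± 0.65, *Arc* 2.40 ± 0.81 and *Fosb* 2.22 ± 0.81), where 4452 of 15601 genes were. DESeq2 called 4 members, with 903 of 12274 genes higher in this term and 1298 lower. The difference between rounds in glia was thus not shown to differ from that in neurons by the edgeR fit. On simulated data the interaction fit recovered 12% of 2-fold and 74% of 4-fold changes. The fit between rounds in neurons recovered 12% and 56%.

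The 2 pelvic libraries hold the same ganglion in both rounds, 1 library a round, so their folds carry counting intervals only. In glia pelvic_2 exceeded pelvic_1 more than 2-fold for 5 members: *Fosb* 8.63-fold (95% Poisson interval 8.10 to 9.20), *Atf3* 8.35-fold (7.71 to 9.05), *Jun* 3.09-fold (3.01 to 3.16), *Arc* 2.87-fold (2.02 to 4.13) and *Egr1* 2.11-fold (2.05 to 2.17). Over genes with a mean of at least 10 CPM in the 2 libraries, 12.5% did so. With cells thinned to 2000 UMIs 3 members passed 2-fold in glia. In other cells 3 members did, *Fosb* 4.87-fold, *Jun* 3.19-fold and *Atf3* 2.70-fold (8.6% of genes), and in neurons the same 3, *Atf3* 2.87-fold (2.55 to 3.24), *Jun* 2.48-fold (2.40 to 2.57) and *Fosb* 2.07-fold (1.95 to 2.20), against 3.57% of genes. *Atf3* in pelvic neurons rested on 374 UMIs in pelvic_1 and 1080 in pelvic_2.

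The folds of *Fos* were close in the 3 classes, 1.65 in neurons, 1.84 in glia and 1.67 in other cells. *Ier2* lay between 1.09 and 1.47. *Nr4a1* differed in direction between the classes. It stood at 32.90 CPM in pelvic_1 and 30.04 CPM in pelvic_2 neurons, a fold of 0.913 (0.841 to 0.991), but at 385 and 753 CPM in glia, a fold of 1.956 (1.87 to 2.04). *Dusp1* had a fold of 0.922 (0.892 to 0.952) in other cells, a class whose mix of types differed between pelvic_1 and pelvic_2. *Arc* in neurons, from 59 and 49 UMIs, had a fold of 0.825 with an interval, 0.553 to 1.23, that held 1. The median fold of the members was 1.56 in neurons, 2.03 in glia and 1.62 in other cells, where the median of all genes was 1.01, 1.02 and 1.01.

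**Figure D5:**
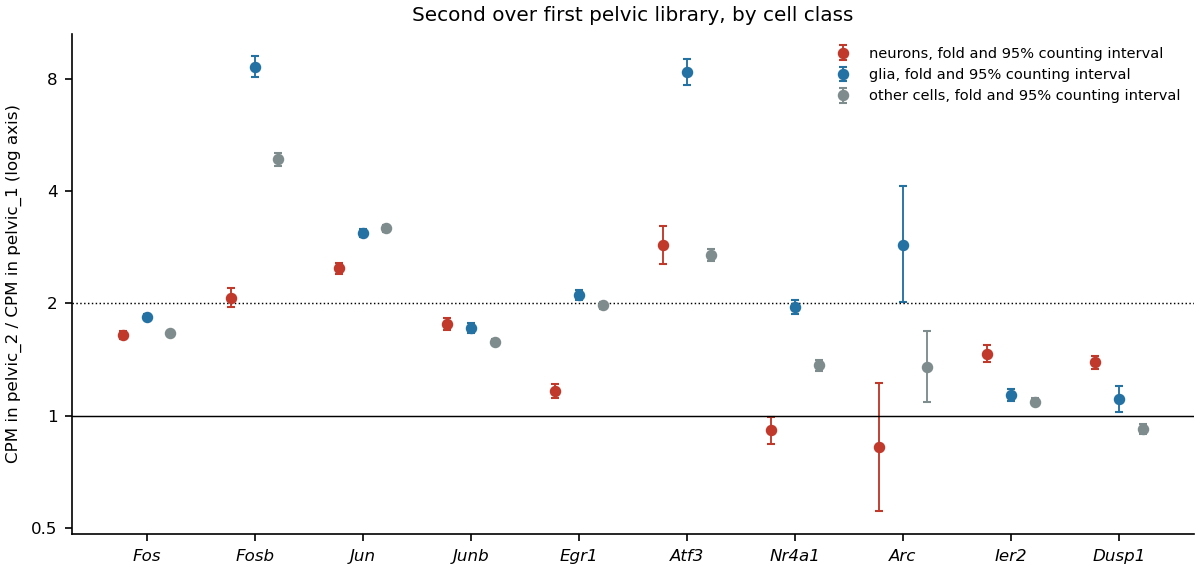
Level in pelvic_2 divided by that in pelvic_1 for each of the 10 genes, in neurons, glia and other cells, on a log axis with lines at 1 and 2. Bars are 95% Poisson intervals and cover counting error only. *Fosb* and *Atf3* in glia lie near 8-fold, and *Nr4a1* in neurons lies below 1.

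The neurons of the ganglia were also set side by side. In both rounds the pelvic library had the highest *Fos* of its round, 274 CPM in round 1 and 451 CPM in round 2, above the 93.6 to 139 CPM of the 4 other ganglia. Both pelvic libraries lay above all 4 others for 8 members in neurons, where 6.85% of genes of at least 10 CPM did so. They did so for 1 member in glia, *Dusp1* (3.08% of genes), and for 3 in other cells, *Arc*, *Ier2* and *Dusp1* (4.87%). The means of *Atf3* in neurons (9.80 CPM) and *Arc* in other cells (5.33 CPM) lie below that bound. For *Nr4a1* in neurons the counting interval of pelvic_2 (28.3 to 31.9 CPM) overlapped that of the sphenopalatine ganglion (26.7 to 29.1 CPM). The exceptions in neurons were *Jun*, for which pelvic_1 at 133 CPM lay below the coeliac at 175 CPM and the lumbar at 161 CPM, and *Arc*, highest in the sphenopalatine ganglion at 2.89 CPM. *Junb* stood at 127 and 223 CPM in the pelvic against 49.3 to 68.2 CPM in the other libraries, *Egr1* at 105 and 123 against 21.2 to 53.8 CPM, and *Dusp1* at 99.3 and 138 against 42.8 to 57.1 CPM. Here the 4 other ganglia include noradrenergic and cholinergic kinds. Most pelvic neurons were cholinergic, 758 in pelvic_1 and 328 in pelvic_2 against 135 and 35 noradrenergic neurons. In noradrenergic neurons of pelvic_1, *Fos* stood at 125, *Egr1* at 46.5 and *Dusp1* at 53.1 CPM, within the ranges of all neurons of the 4 other ganglia. In noradrenergic neurons of pelvic_2 they stood at 260, 47.6 and 76.1 CPM. Set against noradrenergic neurons only, *Egr1* was higher in both pelvic libraries. It stood at 20.6 CPM in the stellate, 30.4 in the sphenopalatine, 36.6 in the coeliac and 27.1 in the lumbar library. *Fos* (87.7 to 130 CPM) and *Dusp1* (36.3 to 57.1 CPM) of those 4 took in the pelvic_1 values and lay below those of pelvic_2. The part of the transmitter kinds in this order was not tested.

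The comparison of pelvic with other neurons was chosen after the values were seen. In an edgeR fit with round as a term, no member passed for pelvic against other neurons, with 0.362% of 16561 genes higher and 0.103% lower. On simulated data this fit recovered 6% of 2-fold and 56% of 4-fold changes. The estimate for *Fos* was 1.63 ± 0.25 with an adjusted p of 0.0726, that for *Fosb* 2.10 ± 0.35 with 0.0784 and that for *Jun* 0.94 ± 0.12 with 0.0527. Of the 10, 8 had an unadjusted p under 0.05 by edgeR, as had 2454 of the 16561 genes. DESeq2 called 8, with 756 of 16561 genes higher and 568 lower. Once the sphenopalatine library was left out edgeR called 9, with 1621 of 15715 genes higher and 1294 lower. Pelvic neurons also had the highest glial marker share of each round, 1.84% and 1.20%, and the highest median share of mitochondrial UMIs, 7.78% and 8.68% against 6.42% to 7.05% in the other ganglia. The part of either in these levels was not tested.

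Within libraries that held at least 20 neurons of both kinds, cholinergic and noradrenergic neurons, split by their transmitter genes, could be compared inside a ganglion, also a choice made after the values were seen. *Fos* stood at 299 CPM in 758 cholinergic and 125 CPM in 135 noradrenergic neurons of pelvic_1 and at 473 CPM in 328 and 260 CPM in 35 of pelvic_2. In the lumbar chain it stood at 346 CPM in 40 cholinergic and 87.7 CPM in 884 noradrenergic neurons. In the stellate ganglion it stood at 148 CPM in 28 cholinergic and 92.9 CPM in 2693 noradrenergic neurons. In the sphenopalatine ganglion it stood at 139 CPM in 1862 cholinergic and 120 CPM in 23 noradrenergic neurons. *Fos* was higher in the cholinergic neurons of each of the 5. For the sphenopalatine ganglion its counting intervals overlapped (136 to 141 and 98.3 to 146 CPM). *Fosb* (16.6 and 24.6 CPM) and *Nr4a1* (27.9 and 29.2 CPM) were lower in the cholinergic neurons there, as were *Jun* and *Dusp1* in those of the stellate ganglion. A cell took the kind whose transmitter genes gave more UMIs. Whether the 23 sphenopalatine cells are noradrenergic neurons was not tested. In edgeR with the library as a block *Egr1* (1.53 ± 0.19, adjusted p = 0.00776), *Junb* (1.50 ± 0.18, adjusted p = 0.00704) and *Ier2* (1.25 ± 0.26, adjusted p = 0.0377) were higher in cholinergic neurons, no member was lower, and 2.56% of genes were higher and 1.45% lower. For *Fos* the difference was 1.00 ± 0.23 with an adjusted p of 0.0536. All 10 estimates were above 0. The call for *Ier2* was lost without the stellate, pelvic_1 or pelvic_2 library. DESeq2 called 7 members, where 737 of 14965 genes were higher. Without a filter on low counts edgeR called 8, where 670 of 24025 genes were higher. Without the sphenopalatine library it called 5, where 591 of 14989 genes were higher. The glial marker share was also higher in the cholinergic neurons of 4 of the 5 libraries: 1.98% and 1.06% in pelvic_1, 1.26% and 0.741% in pelvic_2, 1.01% and 0.746% in the stellate and 0.984% and 0.427% in the sphenopalatine ganglion. In the lumbar chain it was 0.0995% and 0.302%. The median mitochondrial share was higher in the cholinergic neurons of each of the 5 libraries, for example 8.08% and 6.22% in pelvic_1, and the part of either share in these levels was not tested.

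Lists of related genes were set beside the members. Of 31 other early response genes tested, 24 were higher in glia than in neurons and 2 lower by edgeR, with a median of 1.75 on the log2 CPM scale against 0.0128 for all genes, of which 38.4% were higher and 38.3% lower. In UMIs per cell 8 of the 31 were higher and 16 lower, with a median of -1.02 against -2.74 for all genes. *Ccn1*, a secreted matrix protein gene, exceeded its neuronal level by 6.74 ± 0.38 and *Egr2*, a factor that glia of the Schwann lineage also use for myelin, by 6.13 ± 0.26, while *Jund*, the most abundant, exceeded it by 0.42 ± 0.13, with adjusted p-values of 6.04e-09, 6.14e-10 and 0.00974 by edgeR. Of the 12 heat shock genes 4 were higher and 8 lower in CPM, and 1 and 10 in UMIs per cell. On the latter scale 7.25% of all genes were higher and 84.2% lower. *Hspa8* and *Hsp90ab1*, constitutive chaperones, had differences of -1.32 ± 0.07 and -1.17 ± 0.07, and *Hspa1a* and *Hspa1b*, the inducible pair, 4.17 ± 0.26 and 3.27 ± 0.34, all 4 past the edgeR threshold.

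Genes of neuronal activity gave 0 higher and 8 lower of 12 in CPM, and 0 and 12 in UMIs per cell. Of all genes 38.4% were higher and 38.3% lower in CPM, and 7.25% and 84.2% in UMIs per cell. In CPM *Vgf* and *Pcsk1*, a peptide precursor and a convertase, stood at -3.49 each, *Scg2* at -3.10 and *Crem* at -0.11 (adjusted p = 0.483 by edgeR). Genes of nerve injury, *Jun* and *Atf3* left out as members, gave 3 higher and 5 lower of 8 in CPM, where 38.4% and 38.3% of all genes were, and 0 and 6 in UMIs per cell. *Gap43*, a growth cone protein that also served to pick the neurons, stood at -4.00 and *Gal*, the gene of the peptide galanin, at -4.08, while *Klf6*, also on the early gene list, stood at 2.49. In glia between rounds 16 of 31 other early genes were higher in round 2 and none lower, against 27.7% and 26.9% of all genes. In pelvic against other neurons none of the 31 passed, with a median of 0.83 against -0.03 over all genes and 1.40 for the members.

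Over the 18 sums, the genes whose centred log2 CPM ran most like the members' mean, among 9563 genes of at least 10 CPM, were *Rest*, at a Pearson correlation of 0.989, *Ltbp3* at 0.988, *Col14a1* at 0.986, *Grasp* and *Nr2f2* at 0.985, *Clic4* and *Smo* at 0.983, *Relb* at 0.982, *Plpp3* at 0.981 and *Lima1* at 0.980. *Rest*, the repressor of neuronal genes outside neurons, stood at 0.466 to 3.09 CPM in neurons, 35.4 to 103 CPM in glia and 29.4 to 87.0 CPM in other cells. All 10 were low in neurons and high in both other classes. The 18 points share 6 libraries and 3 classes, and these values are given without a test.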

How the data were processed

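Per the submitters' processing notes, the authors counted UMIs per gene with Cell Ranger 6.0.1 on mm10 and deposited the filtered raw counts of 6 libraries, not normalized. Droplets with more than 1500 and fewer than 11000 genes and under 15% mitochondrial UMIs were kept. Values from sctransform 0.4.2 chose neurons (marker mean above 3) and glia (1.15 or more). Other cells were clustered by the Louvain method (python-igraph 0.11.9) without the members. Doublets that mix neurons and glia were removed through these thresholds, and 1 alternative removed cells near simulated doublets. Counts were summed per library and class (at least 20 cells) and tested with edgeR 4.0.16 (quasi-likelihood, TMM, Benjamini-Hochberg over all genes tested, threshold 0.05), with DESeq2 1.42.0 as an alternative, after tests on simulated data. Cells were thinned to 2000 UMIs with a fixed seed. CPM intervals are exact Poisson, shares Wilson, both 95%. Correlations used log2(CPM + 1). The related lists named the 2 most abundant genes and the 2 largest differences. The members and lists were chosen with earlier results of these data known. Gene positions are those of GRCm38 and promoters are from RefSeq. Alternatives tried were another selection of cells, doublets left out, mitochondrial share under 5%, thinning, no low-count filter, each library left out, single rounds and UMIs per cell. The gene that drives Cre is not reported here.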

Additional observations from a re-analysis of the deposited data

Results flagged for a closer look

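In neurons *Atf3* in pelvic_2, at 29.3 CPM, stood apart from the other 5 libraries, of which the next was at 10.2 CPM. In glia *Arc* in pelvic_2, at 15.4 CPM, stood apart in the same way, the next library being at 8.02 CPM. These are 2 of 30 combinations of gene and class examined, and chance flags about 1 in 20 where libraries are alike and combinations independent. Here the libraries differed in ganglion and round and the members ran together, so that rate is only a guide.

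For 2 members the classes moved in opposite directions from pelvic_1 to pelvic_2, and the difference between the classes was not tested, since each round holds 1 pelvic library. *Nr4a1* had a fold of 0.913 in neurons, 1.956 in glia and 1.36 in other cells. *Dusp1* had a fold of 1.39 in neurons, 1.11 in glia and 0.922 in other cells. The other cells mix types, and their make-up differed between pelvic_1 and pelvic_2. Chromaffin-like cells, at 1061 CPM of *Dusp1* summed over libraries, were 157 of 1689 other cells in pelvic_1 and 34 of 694 in pelvic_2. The part of this make-up in the fold was not tested.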

How the results depend on the processing

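Of the values of single members under the alternatives, over the 3 comparisons of classes, the rounds in glia, pelvic against other neurons and cholinergic against noradrenergic neurons, 755 kept their direction and side of the threshold, 38 passed it newly, 31 no longer passed and 4 turned. Those 4 turned in UMIs per cell: *Dusp1* between glia and neurons (-2.09), and *Fos* (0.0615), *Jun* (0.13) and *Egr1* (0.74) between other cells and glia. On that scale 6 members were higher and 1 lower in glia than neurons, and 4 higher and 0 lower in other cells than glia. Higher in other cells than glia were 1 member without the library block, 1 in round 1 alone, 1 in round 2 alone, and 1 to 2 with a library left out (1 without stellate, sphenopalatine, coeliac or lumbar). Lower there were 0 without the block, 1 in round 2 alone, and 1 to 2 with a library left out (1 without the sphenopalatine). Of all genes 2958 of 14839 were higher in other cells than glia and 2826 lower without the block. In round 1 alone 3202 of 15390 were higher, and in round 2 alone 3927 of 15531 were higher and 3426 lower. With a library left out 3783 to 4273 genes were higher and 3438 to 4184 lower. Between rounds in neurons 1 was higher under 5% mitochondrial UMIs and 1 by DESeq2, and with a library left out 0 to 1 were lower (1 without pelvic_2). Under 5% mitochondrial UMIs 973 of 10267 genes were higher there. Leaving a library out gave 5 to 7 higher in round 2 glia. Of all genes this gave from 3280 of 13569 (without the coeliac) to 3679 of 13498 (without the stellate). The interaction called 1 after thinning, 4 by DESeq2 and 0 to 2 with a library left out (1 without stellate, 2 without pelvic_2). Over all genes it called 13 higher and 15 lower of 12145 after thinning. Without stellate these were 960 and 677 of 15410, and without pelvic_2 148 and 451 of 15433. In pelvic neurons 1 was higher with cells selected on log counts, 1 without simulated doublets, 2 after thinning, 8 by DESeq2 and 0 to 9 with a library left out (9 without the sphenopalatine). In cholinergic neurons these were 7 by DESeq2, 8 without the filter and 2 to 5 with a library left out (5 without the sphenopalatine). Over all genes 737 of 14965 were higher in cholinergic neurons by DESeq2, 670 of 24025 without the filter and 591 of 14989 without the sphenopalatine. In pelvic neurons 92 of 16652 were higher with selection on log counts, 92 of 16069 without simulated doublets and 51 of 10602 after thinning. After thinning 3 members passed 2-fold in pelvic glia. Without thinning 1 member was detected in more glia than neurons in all 6 libraries. The causes were not tested. The comparisons of classes and of transmitter kinds are within library. No paired analysis was made in the comparisons between ganglia or rounds. The labels name no pups shared between libraries, and the fits between rounds did not pair the pelvic libraries.

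Depth limits *Arc* most, with 3 UMIs in all the coeliac neurons. Each ganglion but the pelvic is 1 library, and the number of pups behind a library is not given in the sources used here. No library left the tissue undissociated, so no level here can be set against that of intact ganglia.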
